A study of Homo sapiens with 12 samples.

Results

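The immunoglobulin (Ig) genes, which encode the chains of antibodies, were measured by RNA-seq in JJN3, a human multiple myeloma cell line, that is, a line of malignant plasma cells. Ig genes were taken as every symbol of the gene table that names a V segment, a D segment or a constant gene of the heavy chain locus (IGH), or a V segment or constant gene of the kappa (IGK) or lambda (IGL) light chain locus, together with JCHAIN and IGLL5. This rule matched 380 of 59276 gene symbols. Of the matches, IGHMBP2 shares only its first letters with the others and encodes a helicase, so it was kept apart and 379 Ig genes were followed. The 12 samples formed 4 groups of 3. JJN3 cells received the vehicle DMSO or 10 µM MS023, an inhibitor of the type I protein arginine methyltransferases, for 3 days, and the sources name no vector for these cells. The other cells had been infected with a lentivirus for Cas9 and mCherry, sorted for mCherry, infected with a doxycycline-inducible guide and selected in puromycin. They carried either a control guide (isgCtrl) or a guide to the methyltransferase gene PRMT1 (iPRMT1, called PRMT1-KO here), and were induced with doxycycline for 3 days. No cloning step was found. The study's general statement on statistics speaks of independent experiments, but nothing says of these RNA samples that they came from separate cultures, so the p-values below measure the spread between these samples, which may be technical.

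Antibodies are built of heavy chains (IGH) and light chains of the kappa or the lambda type. While a B cell develops, it joins V, D and J segments of its heavy locus and V and J segments of a light locus into a functional gene, so that a plasma cell clone usually carries a single productive light chain type, and the constant gene decides the class (IGHM, IGHD, IGHG, IGHA or IGHE). Plasma cells make antibodies in bulk. Their Ig mRNA is among the most abundant of any cell, and they depend on a large endoplasmic reticulum to fold and secrete the chains. JCHAIN encodes the joining chain that links IgM or IgA units into larger complexes. IGLL5 lies in the lambda locus, and its transcript runs into the first lambda constant gene.

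Levels are given in TPM, a relative abundance per transcript length that is scaled to 1 fixed sum in every sample. The depth of each sample could therefore not be read from the values, and the study's methods give only a minimum number of read pairs for all samples. Between 20988 and 22241 genes per sample were above 0. Plasma cell identity was checked with 8 markers, each of which passed 1 TPM in some sample, with summed levels of 716 to 755 TPM in DMSO and 1153 to 1197 TPM in MS023. The same sum was 653 to 667 TPM for isgCtrl samples and 627 to 631 TPM for PRMT1-KO samples. With MS023 against DMSO 5 of the 8 were called, 4 up and 1 down, beside 30.9% of all genes tested. Single markers differed more than the sum between isgCtrl and DMSO, where 4 of the 8 were called, beside 13.9% of all genes tested. MZB1, SLAMF7 and CD38 were lower in isgCtrl by 5.15, 2.92 and 1.37 in log2(TPM+1), and IRF4 was higher by 0.72. Only 1 of 7 B cell markers (CD79B), 0 of 5 T cell markers and 1 of 5 myeloid markers passed 1 TPM in any sample. PRMT1 itself, the targeted gene, was at 867, 863 and 849 TPM in isgCtrl and at 302, 309 and 301 TPM in PRMT1-KO, and lay between 634 and 700 TPM in the DMSO and MS023 samples.

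Many Ig genes are near-identical copies, and short reads cannot always be assigned between them. The sequence shared by the copies was therefore measured in the GENCODE v44 transcripts (GRCh38) as the share of each gene's stretches of 31 bases that no other gene holds, 31 being the word length that the authors' quantifier used. IGKC, the only kappa constant gene, was unique in 100% of its stretches and JCHAIN in 98.8%. In contrast, IGLC1 was unique in 0%, because its single exon (chromosome 22, 22895375 to 22895834, plus strand) lies within the last exon of IGLL5, so that all of its 430 stretches also belong to IGLL5. IGKV3-15 was unique in 15.1%, with 70.2% of its stretches shared with IGKV3D-15, and IGLV2-14 in 25.3%. The 4 genes that encode IgG constant regions, IGHG1 to IGHG4, were unique in 31.3% to 38.4%.

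The likeness of the copies that carry the results can be seen in 75 bases of each. The lambda constant genes are shown from the first base of their transcripts, with bases unlike IGLC1 in capitals (whole genes: IGLC1 and IGLC2 were identical at 93.3% of 460 aligned bases, IGLC2 and IGLC3 at 99.1% of 462).
IGLC1: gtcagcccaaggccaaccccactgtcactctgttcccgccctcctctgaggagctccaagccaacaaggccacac
IGLC2: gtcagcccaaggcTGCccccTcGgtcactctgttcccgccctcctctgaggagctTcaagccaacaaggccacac
IGLC3: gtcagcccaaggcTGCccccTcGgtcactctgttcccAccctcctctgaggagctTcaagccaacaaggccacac
IGLC7: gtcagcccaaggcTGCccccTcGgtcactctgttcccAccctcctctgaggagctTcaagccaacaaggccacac

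The V segments of the IGLV2 family are shown at the matching stretch of their transcripts, with bases unlike IGLV2-14 in capitals. Over the whole segments IGLV2-14 was identical to IGLV2-11 at 93.5%, to IGLV2-8 at 95.2% and to IGLV2-23 at 95.5% of the aligned bases.
IGLV2-14: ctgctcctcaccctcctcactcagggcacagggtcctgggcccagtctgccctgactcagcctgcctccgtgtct
IGLV2-11: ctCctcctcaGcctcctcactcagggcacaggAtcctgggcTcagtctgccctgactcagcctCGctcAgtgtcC
IGLV2-23: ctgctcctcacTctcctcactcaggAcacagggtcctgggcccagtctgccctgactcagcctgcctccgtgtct
IGLV2-8: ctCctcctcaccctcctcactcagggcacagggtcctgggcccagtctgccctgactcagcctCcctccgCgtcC

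The most abundant V segment, IGKV3-15, and its distal copy differed at 3 of 394 aligned bases, and all 3 differences (capitals) fall in the stretch shown.
IGKV3-15: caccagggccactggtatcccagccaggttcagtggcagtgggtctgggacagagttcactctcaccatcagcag
IGKV3D-15: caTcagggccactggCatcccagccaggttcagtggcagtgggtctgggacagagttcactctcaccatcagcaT

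JJN3 cells used a narrow set of these genes. Of the 379 Ig genes, 305 were listed at 0 in every sample, 74 were above 0 in some sample, 31 passed 1 TPM in some sample and 14 were above 0 in all 12. All 30 heavy chain D segments and the IgD constant gene IGHD were listed at 0 throughout, as were 138 of 148 IGHV, 81 of 101 IGKV and 52 of 76 IGLV segments. The D segments are shorter or little longer than the 31-base word of the authors' quantifier, so their values of 0 are no evidence on their use. A single V segment held nearly all of the kappa V signal: IGKV3-15 made up 99.98% to 99.99% of the IGKV sum, and the 4 next IGKV segments by mean level (IGKV3D-15, IGKV3D-11, IGKV3-20 and an IGKV3 segment outside the locus) each stayed at or below 1.73 TPM. Among heavy chain V segments, IGHV3-30 and IGHV4-34 passed 1 TPM in some sample, with highest values of 11.3 and 1.26 TPM. The other heavy V segments among the 5 highest (IGHV4-61, IGHVIII-67-4 and IGHV1-24) reached 0.981, 0.354 and 0.199 TPM. No heavy V segment thus came near the level of the IgG1 constant gene IGHG1, which was at 413 to 584 TPM.

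**Figure D1:**
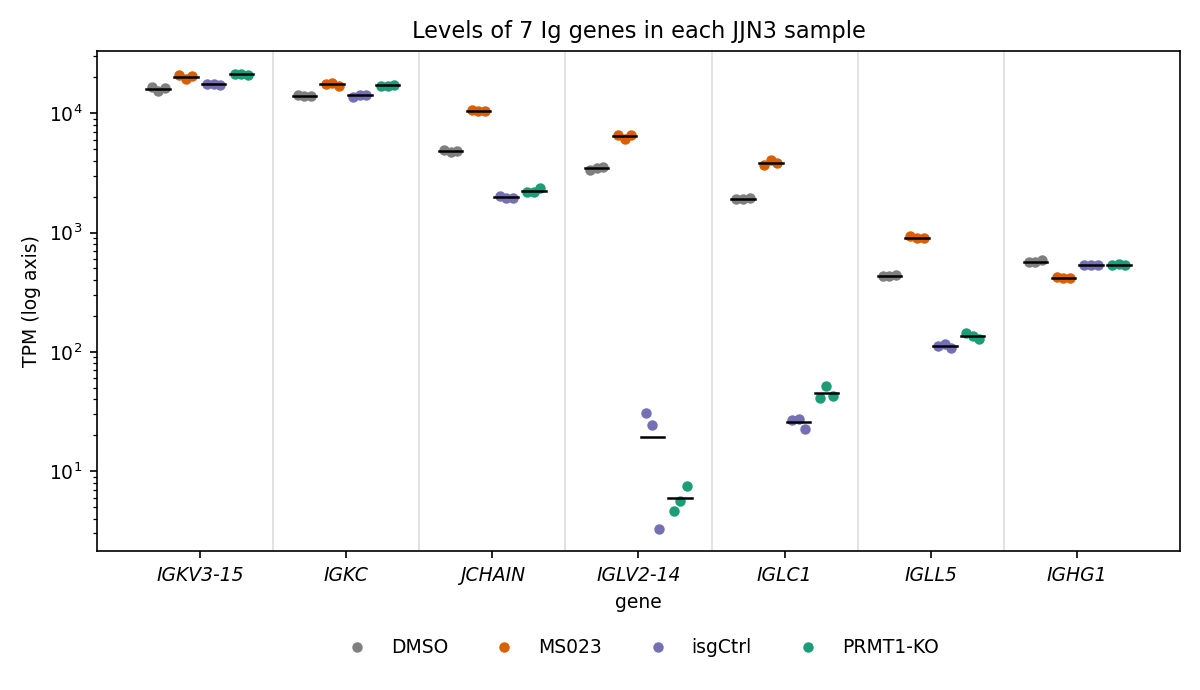
TPM (y axis, log scale) of 7 Ig genes (x axis) in each sample, with 3 dots per group and a line at the group mean. The kappa genes and IGHG1 stay within a narrow band in all 4 groups, whereas IGLV2-14 and IGLC1 are at or above 1899 TPM in the DMSO and MS023 samples and at or below 51.5 TPM in the isgCtrl and PRMT1-KO samples.

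MS023 against DMSO asks which Ig genes respond to the inhibitor. JCHAIN, IGHE, IGLL5, IGLC1 and the lambda V segments IGLV2-14, IGLV2-11 and IGLV2-23 rose. The lambda genes IGLC2 and IGLV3-9 and the IgG gene IGHG4 fell. The kappa genes (1.25-fold for IGKC) and IGHG1 (72.9% of DMSO) differed by less than the fold threshold. The whole table was tested in limma, leaving out genes whose mean log2(TPM+1) did not exceed 1 in any group compared, and a gene is called when its Benjamini-Hochberg adjusted p is under 0.05 and its difference of mean log2(TPM+1) is beyond 0.48 in either direction. Of the 379 Ig genes, 21 were tested (19 passed the filter in both groups and 2 through MS023 only), and 11 were called, 8 up and 3 down, beside 30.9% of all 12903 genes tested. The 8 called up were IGHE, IGLV3-25, JCHAIN, IGLL5, IGLC1, IGLV2-11, IGLV2-14 and IGLV2-23. IGLV3-25 was tested only through its MS023 level, so its call is no support for a rise. IGLV3-9, IGLC2 and IGHG4 fell. With copies summed to classes, 5 of 11 sums were called up and 0 down, beside 1497 up and 2483 down of all 12893 rows tested. The DMSO and MS023 values did not overlap for 16 of the 21 tested Ig genes and for 59.5% of all genes tested. The median difference was 0.38 over the tested Ig genes and -0.11 over all genes tested. Median-ratio scaling moved the latter to 0.00. On that scale 9 Ig genes were called up and 3 down, and the calls over all genes changed from 1500 up and 2486 down to 2012 up and 1882 down.

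PRMT1-KO against isgCtrl asks the same of the knockout. IGLC1 was the one Ig gene called, and kappa genes were higher by an amount close to that seen with MS023, without passing the test. Of the 379 Ig genes, 15 were tested (14 through both groups, 1 through PRMT1-KO only) and 1 was called, beside 0.781% of the 12285 genes tested. At an unadjusted p under 0.05 in limma there were 8 of the 15, beside 2290 of the 12285 genes tested. The values of the 2 groups did not overlap for 9 of the 15, and for 26.7% of all genes tested. The median difference was 0.01 over the tested Ig genes and -0.04 over all genes. The call of IGLC1 was lost when any 1 of the 6 samples was left out (limma, Benjamini-Hochberg adjusted p = 0.104 to 0.137).

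isgCtrl against DMSO sets the 2 control groups side by side. Lambda genes were far lower in isgCtrl, whereas kappa and heavy chain constant genes were close. Of the 379 Ig genes, 20 were tested (13 through both groups, 6 through DMSO only and 1 through isgCtrl only) and 11 were called, beside 13.9% of the 12661 genes tested. IGLV2-14, IGLC1, IGLV2-11, IGHV3-30, IGLV2-8, IGLV2-23, IGLV6-57, IGLL5 and JCHAIN were lower in isgCtrl, and IGLC2 and IGLC3 were higher. Of these, IGLV2-11, IGHV3-30, IGLV2-8, IGLV2-23 and IGLV6-57 passed the filter only through DMSO, where they are high, so a difference was required for them to be tested. With the filter on every sample 4 lower calls were left among 13 Ig genes, beside 516 among all 11000 genes tested. With copies summed to classes, 6 of 11 sums were called lower in isgCtrl and 0 higher, beside 845 lower and 913 higher of all 12652 rows tested. The groups did not overlap for 15 of the 20 Ig genes, and for 51.7% of all genes tested. These groups differ in Cas9, the guide vector, cell sorting, puromycin, doxycycline and DMSO at once, and the part of each cannot be told apart. The sources used here also do not say whether both came from the same stock of JJN3 cells. MS023 against DMSO and isgCtrl against DMSO share the DMSO samples, and PRMT1-KO and isgCtrl against DMSO share isgCtrl, so the comparisons are not independent.

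The kappa genes were the most abundant Ig genes in every group. IGKV3-15 (chromosome 2, 89085177 to 89085787, minus strand) ranked first among all genes in the MS023, isgCtrl and PRMT1-KO samples and second in DMSO. Its level was 16638, 15389 and 16283 TPM in DMSO, 20846, 19375 and 20750 TPM in MS023, 17557, 17732 and 17281 TPM in isgCtrl and 21305, 21580 and 21131 TPM in PRMT1-KO. Each MS023 sample lay above each DMSO sample, and each PRMT1-KO sample above each isgCtrl sample. IGKC (chromosome 2, 88857161 to 88857683, minus strand), the constant gene to which kappa V segments are spliced, was likewise higher in MS023 than in DMSO and in PRMT1-KO than in isgCtrl. It was at 14259, 13859 and 13995 TPM in DMSO, 17709, 17817 and 17012 TPM in MS023, 13773, 14319 and 14363 TPM in isgCtrl and 17066, 17075 and 17285 TPM in PRMT1-KO. The DMSO and isgCtrl values of IGKC overlapped.

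In MS023, IGKC was 1.25-fold the DMSO mean, a difference of 0.32 ± 0.06 (SE) in log2(TPM+1) that is under the fold threshold (limma, Benjamini-Hochberg adjusted p = 0.00593). IGKV3-15 differed by 0.34 ± 0.07 (limma, Benjamini-Hochberg adjusted p = 0.00830). In PRMT1-KO, IGKC was 1.21-fold the isgCtrl mean, with a difference of 0.28 ± 0.05 (limma, Benjamini-Hochberg adjusted p = 0.0609), and IGKV3-15 differed by 0.28 ± 0.04 (limma, Benjamini-Hochberg adjusted p = 0.0538). Quantile normalization gives genes of equal rank the same value, and there the IGKC difference was 0.10 with MS023 and 0 in PRMT1-KO, and that of IGKV3-15 was 0.13 and 0. After median-ratio scaling the PRMT1-KO differences of IGKC and IGKV3-15 were 0.32 and 0.33. For IGKC the MS023 effect exceeded the PRMT1-KO effect by 0.04, with a 95% interval of -0.10 to 0.18 (limma, Benjamini-Hochberg adjusted p = 0.635). The ratio of IGKV3-15 to IGKC TPM was 1.15 ± 0.03 (SD, n = 3) in DMSO, 1.16 ± 0.07 in MS023, 1.24 ± 0.04 in isgCtrl and 1.25 ± 0.02 in PRMT1-KO.

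The first lambda constant gene differed between all 4 groups. IGLC1, which lies within the last exon of IGLL5, was at 1903, 1899 and 1959 TPM in DMSO and at 3672, 4078 and 3814 TPM in MS023. It was at 26.6, 27.4 and 22.7 TPM in isgCtrl and at 40.7, 51.5 and 42.5 TPM in PRMT1-KO. No 2 groups overlapped. MS023 raised it 2.01-fold, by 1.00 ± 0.07 (SE) in log2(TPM+1) (limma, Benjamini-Hochberg adjusted p = 1.8e-04). In PRMT1-KO it was 1.75-fold the isgCtrl level, a difference of 0.78 ± 0.12 (limma, Benjamini-Hochberg adjusted p = 0.0482). The effect of MS023 exceeded that of PRMT1-KO by 0.22, with a 95% interval of -0.08 to 0.52 (limma, Benjamini-Hochberg adjusted p = 0.240), so a difference between the effects was not shown. isgCtrl held 1.33% of the DMSO mean, 6.18 ± 0.08 lower in log2(TPM+1) (limma, Benjamini-Hochberg adjusted p = 6.1e-06).

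IGLL5 was unique in 60.9% of its stretches and shares 31.6% with IGLC1. It was at 431, 432 and 444 TPM in DMSO, 928, 897 and 901 TPM in MS023, 113, 116 and 107 TPM in isgCtrl and 143, 136 and 127 TPM in PRMT1-KO. The order of the groups was that of IGLC1, but isgCtrl kept 25.7% of the DMSO level of IGLL5. MS023 raised IGLL5 by 1.06 ± 0.06 (limma, Benjamini-Hochberg adjusted p = 1.0e-04). In PRMT1-KO the difference was 0.27 ± 0.06 (limma, Benjamini-Hochberg adjusted p = 0.123). The IGLC1 to IGLL5 ratio of TPM was 4.41 ± 0.01 (SD, n = 3) in DMSO and 4.25 ± 0.30 in MS023, against 0.228 ± 0.014 in isgCtrl and 0.332 ± 0.047 in PRMT1-KO. Every 31-base stretch of IGLC1 is also in IGLL5, and the division of reads between them was not tested. The sum of the IGLC genes and IGLL5 was 2368 ± 41.3 TPM (SD, n = 3) in DMSO, 4768 ± 193 TPM in MS023, 167 ± 10.3 TPM in isgCtrl and 199 ± 9.05 TPM in PRMT1-KO. By this sum isgCtrl held 7.04% of the DMSO level, against 1.33% for IGLC1 alone. PRMT1-KO was 1.19-fold isgCtrl, with no overlap.

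IGLC2 and IGLC3, the next lambda constant genes, were 99.1% identical and went against IGLC1 where they were called. IGLC2 was at 9.30, 6.84 and 5.87 TPM in DMSO, 2.75, 2.25 and 2.10 TPM in MS023, 21.9, 16.6 and 12.8 TPM in isgCtrl and 11.6, 9.02 and 12.9 TPM in PRMT1-KO. It fell by 1.29 ± 0.16 in log2(TPM+1) with MS023 (limma, Benjamini-Hochberg adjusted p = 0.00155) and was 1.11 ± 0.23 higher in isgCtrl than in DMSO (limma, Benjamini-Hochberg adjusted p = 0.0149). IGLC3 was 0.76 ± 0.21 higher in isgCtrl than in DMSO (limma, Benjamini-Hochberg adjusted p = 0.0369), a call lost without DMSO replicate 2 or 3 or isgCtrl replicate 1 or 3 (adjusted p = 0.0822 to 0.104). With MS023 IGLC3 differed by -0.71 ± 0.43, and its values overlapped those of DMSO. IGLC5, at 4.41, 6.63 and 4.01 TPM in isgCtrl, was listed at 0 in all MS023 samples and in 1 DMSO sample. IGLC4, IGLC6 and IGLC7 stayed at or below 0.649 TPM.

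Because reads may be split among copies, the TPM of each constant class were added up. The IGLC sum was 1933 ± 34.1 TPM (SD, n = 3) in DMSO, 3860 ± 207 TPM in MS023, 54.6 ± 6.58 TPM in isgCtrl and 63.4 ± 5.36 TPM in PRMT1-KO. All MS023 samples lay above all DMSO samples, by 1.00 on the log2 scale, whereas the PRMT1-KO and isgCtrl values overlapped at 1.16-fold, unlike those of the sum with IGLL5. The IGLC1 increase of 1.75-fold in PRMT1-KO thus shrank once the lower values of IGLC2, IGLC3 and IGLC5 were added. Lambda constant genes made up 12.1% ± 0.25 of the light chain constant TPM in DMSO, 18.1% ± 0.77 in MS023, 0.385% ± 0.054 in isgCtrl and 0.368% ± 0.032 in PRMT1-KO. In bulk RNA, fewer cells with lambda transcripts and less lambda RNA per cell cannot be told apart.

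**Figure D2:**
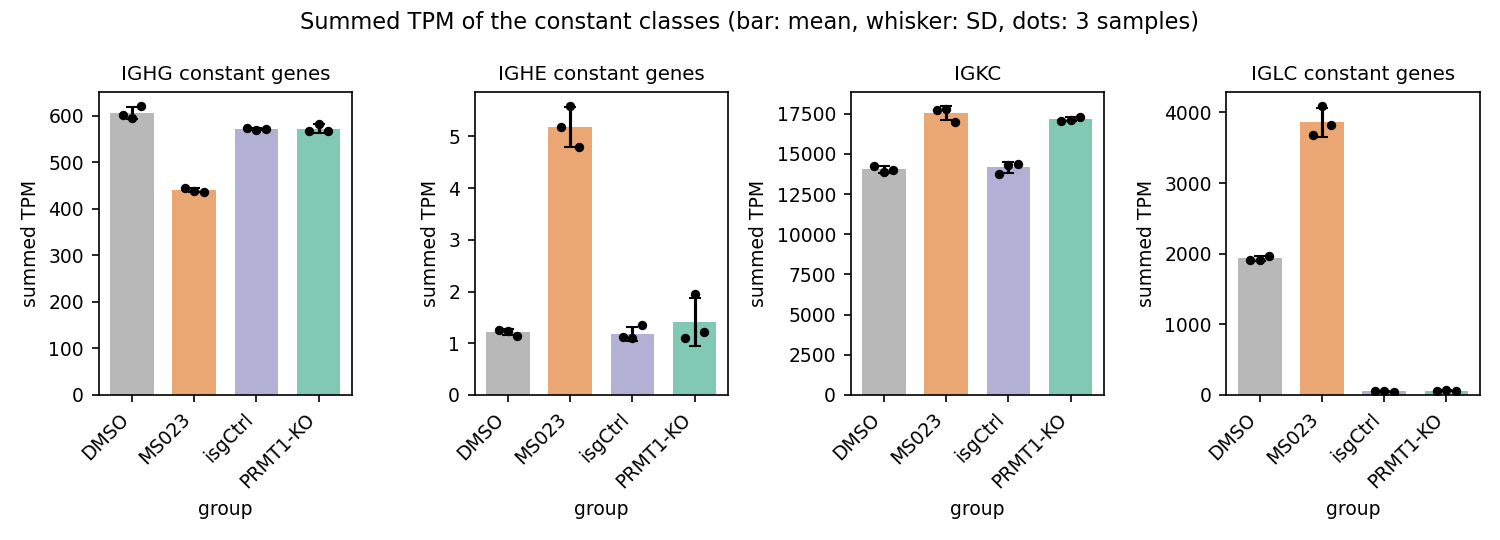
Summed TPM (y axes from 0, on different scales) of the IgG, IgE, kappa and lambda constant genes in the 4 groups (x axes), with bars for means, whiskers for SD and dots for the 3 samples. The IGLC sum is 1933 TPM in DMSO, 3860 in MS023 and below 70 TPM in every isgCtrl and PRMT1-KO sample, while the IGHG sum is lowest in MS023.

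IGLV2-14, the most abundant lambda V segment, was high in DMSO and MS023 and low in the guide-carrying cells. IGLV2-14 (chromosome 22, 22758700 to 22759218, plus strand) was at 3329, 3489 and 3550 TPM in DMSO and 6630, 6136 and 6552 TPM in MS023. It was at 30.7, 24.2 and 3.28 TPM in isgCtrl and at 4.62, 5.65 and 7.52 TPM in PRMT1-KO. The isgCtrl samples spread over nearly a factor of 10, replicate 3 being below all PRMT1-KO samples and the other two above them. MS023 raised IGLV2-14 by 0.90 ± 0.07 in log2(TPM+1) (limma, Benjamini-Hochberg adjusted p = 2.4e-04). It was 7.84 ± 0.75 lower in isgCtrl than in DMSO (limma, Benjamini-Hochberg adjusted p = 0.00170), and single isgCtrl samples held 0.889%, 0.699% and 0.095% of the DMSO mean.

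In PRMT1-KO the IGLV2-14 difference was -1.14 ± 0.77, with a 95% interval of -3.02 to 0.74 (limma, Benjamini-Hochberg adjusted p = 0.469). For this segment the MS023 effect exceeded the PRMT1-KO effect by 2.04 (limma, Benjamini-Hochberg adjusted p = 0.0836). Without isgCtrl replicate 3 this was 2.95 (adjusted p = 2.6e-05), so that 1 library decided the call.

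The ratio of IGLV2-14 to IGLC1 TPM was 1.80 ± 0.05 (SD, n = 3) in DMSO and 1.68 ± 0.15 in MS023, and ranged from 0.145 to 1.16 in isgCtrl and from 0.110 to 0.177 in PRMT1-KO. The ratio was thus higher in every DMSO and MS023 sample than in any guide-carrying sample. IGLV2-14 made up 97.1% to 97.6% of the IGLV sum in the DMSO and MS023 samples.

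The other IGLV2 segments were far lower. IGLV2-11, 93.5% identical to IGLV2-14, was at 74.9, 68.2 and 68.0 TPM in DMSO, 131, 135 and 133 TPM in MS023, 0.485, 0.438 and 0 TPM in isgCtrl and 0.1504, 0.146 and 0.842 TPM in PRMT1-KO. It rose with MS023 by 0.91 ± 0.07 (limma, Benjamini-Hochberg adjusted p = 2.5e-04), as did IGLV2-23 by 0.69 ± 0.15 from 4.79, 5.03 and 4.83 TPM (limma, Benjamini-Hochberg adjusted p = 0.0112). IGLV2-8, at 7.13, 6.37 and 3.90 TPM in DMSO, was listed at 0 in 2 of 3 isgCtrl samples and 2 of 3 PRMT1-KO samples. The split of reads between IGLV2-14 and these copies was not tested.

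Lambda V segments outside this family were low, and IGLV3-25 was tested with MS023 only through its MS023 level. IGLV3-9 was at 6.13, 5.26 and 6.30 TPM in DMSO and fell to 1.99, 2.90 and 0.764 TPM in MS023, by 1.33 ± 0.28 in log2(TPM+1) (limma, Benjamini-Hochberg adjusted p = 0.0104). It was at 9.46, 6.37 and 6.95 TPM in isgCtrl and 4.23, 4.28 and 4.78 TPM in PRMT1-KO. IGLV3-25 was listed at 0 in 2 DMSO samples and at 1.60 TPM in the third, against 2.71, 2.29 and 2.001 TPM in MS023, and its call (limma, Benjamini-Hochberg adjusted p = 0.0355) was lost without DMSO replicate 1 or 2 or any 1 MS023 sample (adjusted p = 0.0711 to 0.102). IGLV6-57, unique in all of its stretches, was at 6.28, 3.51 and 10.0 TPM in DMSO and at 0.417, 0.200 and 0.408 TPM in isgCtrl, 2.41 ± 0.32 lower (limma, Benjamini-Hochberg adjusted p = 0.00379). IGLV6-57 passed the filter there only through DMSO, so a difference was required for it to be tested, and its call is no support for a difference.

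Heavy chain transcripts were almost all of the IgG class. IGHG1 (chromosome 14, 105736343 to 105743071, minus strand) made up 93.1% to 94.3% of the heavy constant TPM in every sample. It was at 564, 563 and 584 TPM in DMSO, 420, 414 and 413 TPM in MS023, 540, 536 and 536 TPM in isgCtrl and 535, 549 and 535 TPM in PRMT1-KO. The MS023 samples lay below all others, and the remaining groups were close, with isgCtrl and PRMT1-KO overlapping. IGHG1 in MS023 was 72.9% of the DMSO mean, a difference of -0.46 ± 0.06 in log2(TPM+1) that just missed the fold threshold (limma, Benjamini-Hochberg adjusted p = 0.00145) and was -0.33 after median-ratio scaling. In PRMT1-KO it differed by 0.01 ± 0.04, with a 95% interval of -0.10 to 0.12 (limma, Benjamini-Hochberg adjusted p = 0.953).

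IGHG2, IGHG3 and IGHG4 share 46.3%, 47.3% and 42.5% of their stretches with IGHG1. IGHG3 was at 24.5 to 26.1 TPM in DMSO and 18.0 to 19.4 TPM in MS023, a difference of -0.42 ± 0.06 that is under the fold threshold (limma, Benjamini-Hochberg adjusted p = 0.00311). IGHG4 fell with MS023 from 10.3, 6.60 and 8.49 TPM to 4.72, 3.42 and 3.32 TPM, by 0.97 ± 0.18 (limma, Benjamini-Hochberg adjusted p = 0.00636). IGHG2 was at 1.06 to 1.24 TPM in DMSO and 0.900 to 1.72 TPM in MS023, with overlap. The IGHG sum was 605 ± 12.5 TPM (SD, n = 3) in DMSO, 440 ± 4.32 TPM in MS023, 572 ± 2.24 TPM in isgCtrl and 572 ± 9.41 TPM in PRMT1-KO.

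IGHE, the IgE constant gene (chromosome 14, 105597691 to 105601728, minus strand), was low and went against the IgG genes. It was at 1.23, 1.23 and 1.15 TPM in DMSO and rose to 5.12, 5.56 and 4.51 TPM in MS023, whereas it was at 1.12, 1.09 and 1.35 TPM in isgCtrl and at 1.10, 1.81 and 1.21 TPM in PRMT1-KO. This is an increase of 4.22-fold with MS023, or 1.46 ± 0.08 in log2(TPM+1) (limma, Benjamini-Hochberg adjusted p = 1.1e-04). The IgA genes IGHA1 and IGHA2 stayed at or below 0.347 TPM and the IgM gene IGHM at or below 0.0649 TPM. IGHV3-30 was at 4.70, 6.71 and 8.73 TPM in DMSO and 8.44, 7.14 and 11.3 TPM in MS023, was listed at 0 in 2 of 3 isgCtrl samples and was at 0.134 TPM in the third, and was listed at 0 in all PRMT1-KO samples.

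The balance of light to heavy chain RNA was higher in MS023 than in DMSO and, by less, in PRMT1-KO than in isgCtrl. The ratio of light to heavy constant TPM was 26.3 ± 0.58 (SD, n = 3) in DMSO, 48.0 ± 1.12 in MS023, 24.8 ± 0.65 in isgCtrl and 30.0 ± 0.63 in PRMT1-KO. All Ig genes together held 4.15% ± 0.09 of the TPM in DMSO, 6.02% ± 0.09 in MS023, 3.44% ± 0.03 in isgCtrl and 4.15% ± 0.02 in PRMT1-KO. IGKV3-15 and IGKC alone held 3.01% in DMSO, 3.78% in MS023, 3.17% in isgCtrl and 3.85% in PRMT1-KO. With MS023 the larger part of the gain thus lay outside this kappa pair, whereas in PRMT1-KO the 2 genes covered nearly all of it.

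JCHAIN (chromosome 4, 70655541 to 70681817, minus strand), whose chain joins IgM or IgA, was abundant although the summed IGHA genes stayed at or below 0.568 TPM. It was at 4937, 4707 and 4864 TPM in DMSO, 10744, 10390 and 10476 TPM in MS023, 2009, 1947 and 1961 TPM in isgCtrl and 2176, 2180 and 2361 TPM in PRMT1-KO. No 2 groups overlapped. MS023 raised JCHAIN 2.18-fold, by 1.12 ± 0.06 (limma, Benjamini-Hochberg adjusted p = 8.95e-05), which took it from rank 24 to 28 among all genes to rank 5. In PRMT1-KO it was 1.14-fold the isgCtrl mean, a difference of 0.18 ± 0.05 (limma, Benjamini-Hochberg adjusted p = 0.178). It was 1.29 ± 0.05 lower in isgCtrl than in DMSO (limma, Benjamini-Hochberg adjusted p = 9.8e-05), at ranks 91 to 94.

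The effects of MS023 and PRMT1-KO were compared directly in a fit of all 12 samples. Of 22 Ig genes tested, 7 were called, beside 24.4% of the 13256 genes tested. MS023 had the more positive effect on IGHE (by 1.35), IGLV3-25 (1.27), JCHAIN (0.94), IGLV2-11 (0.85), IGLV2-23 (0.79) and IGLL5 (0.79), and the more negative effect on IGHG4 (-0.84), all in differences of log2(TPM+1). IGHG1 differed by -0.46 ± 0.06 (limma, Benjamini-Hochberg adjusted p = 2.4e-04), under the fold threshold. IGLV3-25 passed the filter only through MS023, so its call is no support for a difference. IGLV3-25 was at 0 in all guide-carrying samples, IGLV2-23 at or below 0.114 TPM and IGLV2-11 at or below 0.842 TPM there, so for these genes the difference is in effect that of MS023 against DMSO and says nothing on the knockout. The call of IGLV3-25 was lost without any 1 sample other than DMSO replicate 3 (adjusted p = 0.0527 to 0.0862), and that of IGLV2-11 without any 1 sample other than DMSO replicate 1, isgCtrl replicate 3 and PRMT1-KO replicate 3 (adjusted p = 0.0570 to 0.0768). The IGLV2-11 call was also lost with a pseudocount of 0.1 (0.62, adjusted p = 0.656). The guide-carrying cells started from other lambda and JCHAIN levels than the DMSO cells, and the part of that starting level was not tested.

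Antibody output also depends on transcription factors that act on Ig genes and on the folding machinery, and both were counted from lists. The octamer ATGCAAAT, bound by the factors POU2F1 and POU2F2 with their coactivator POU2AF1, is a known element of Ig V promoters. Searched on both strands in the 250 bases before the annotated start, it occurred in 105 of 142 segments annotated as V genes (73.9%) and in 573 of 35116 RefSeq promoters (1.63%, GRCh38). It was also found in 157 of 324 V segments when pseudogenes were included, and in 9 of the 19 V segments above 1 TPM in some sample (47.4%). Windows of 30 bases with the octamer in capitals (on the strand of the gene, where ATTTGCAT is its reverse complement) are shown for V segments that were called in a comparison.
IGLV2-14 (chr22:22758622-22758651): tcaaggtggagATTTGCATgcaggccccac
IGLV2-11 (chr22:22792414-22792443): tcagggtggagATTTGCATggaggccccac
IGLV6-57 (chr22:22195681-22195710): gaaagggagaaATTTGCATggagccctacc
IGLV3-25 (chr22:22686644-22686673): agaggaagtaaATTTGCATaaacaccaaac
IGHV3-30 (chr14:106335648-106335677): tagtgggggacATGCAAATagggccctccc

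No such letters were found in this window of IGKV3-15, IGLV2-23, IGLV2-8 or IGLV3-9. The annotated start varies between copies, and bases after it were not searched. The IGLV2 stretch shown above begins at transcript base 57 in IGLV2-14, but at 178 in IGLV2-23 and 179 in IGLV2-8. A segment without the octamer in this window is thus not shown to lack it, and the counts above carry the same limit. Of the 19 genes on the list of Ig gene transcription, 17 were tested with MS023 and 9 were called, 5 up and 4 down, beside 30.9% of all genes tested. POU2AF1 rose from 128, 122 and 129 TPM to 220, 230 and 236 TPM, by 0.85 ± 0.06 in log2(TPM+1) (limma, Benjamini-Hochberg adjusted p = 2.5e-04). XBP1, the factor that expands the secretory machinery of plasma cells, rose from 219, 227 and 226 TPM to 491, 498 and 500 TPM, by 1.15 ± 0.06 (limma, Benjamini-Hochberg adjusted p = 8.5e-05). IRF8 and IKZF3 also rose, by 1.43 and 0.73, and POU2F1 and SPIB fell by 0.79 and 0.69. In PRMT1-KO 14 were tested and none was called, while 5 had an unadjusted limma p under 0.05, beside 2290 of all 12285 genes.

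Between the controls, 16 of the transcription list were tested and 5 were called, beside 13.9% of all genes, with IRF4, BACH2 and IKZF1 higher in isgCtrl by 0.72, 0.81 and 0.68 and IRF8 and SPI1 lower by 1.19 and 1.06. XBP1 and POU2AF1 were not called there. POU2AF1 was at 172, 166 and 175 TPM and XBP1 at 245, 237 and 250 TPM in isgCtrl, both above every DMSO sample, unlike IGLV2-14, IGLC1 and JCHAIN.

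The 21 genes for folding and secretion of Ig chains were all tested, and with MS023 10 were called, all up, beside 30.9% of all genes. HERPUD1, a part of the degradation machinery of the endoplasmic reticulum, rose by 1.999 ± 0.08, the co-chaperone DNAJB9 by 1.89 ± 0.15, CALR by 1.00 ± 0.06 and HSPA5, the chaperone that binds free heavy chains, by 0.95 ± 0.06 (limma, Benjamini-Hochberg adjusted p = 5.5e-05, 3.3e-04, 1.2e-04 and 1.3e-04). P4HB rose by 0.80 and SEC11C by 0.75. In PRMT1-KO none of the 21 was called, while 4 had an unadjusted limma p under 0.05, beside 2290 of all 12285 genes. The median difference of the 21 was 0.40 with MS023 and 0.01 in PRMT1-KO.

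Between the controls, 9 of the 21 were called lower in isgCtrl and none was called higher, beside 13.9% of all genes called. MZB1, a plasma cell protein of the endoplasmic reticulum that aids Ig assembly and secretion, was the extreme. It was at 107, 103 and 107 TPM in DMSO, 181, 175 and 176 TPM in MS023, 2.41, 1.95 and 1.67 TPM in isgCtrl and 1.57, 0.341 and 1.11 TPM in PRMT1-KO. isgCtrl thus held 1.91% of the DMSO mean, 5.15 ± 0.10 lower in log2(TPM+1) (limma, Benjamini-Hochberg adjusted p = 2.4e-05). SEC11C, a subunit of the signal peptidase, was 1.16 ± 0.05 lower (limma, Benjamini-Hochberg adjusted p = 1.2e-04).

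**Figure D3:**
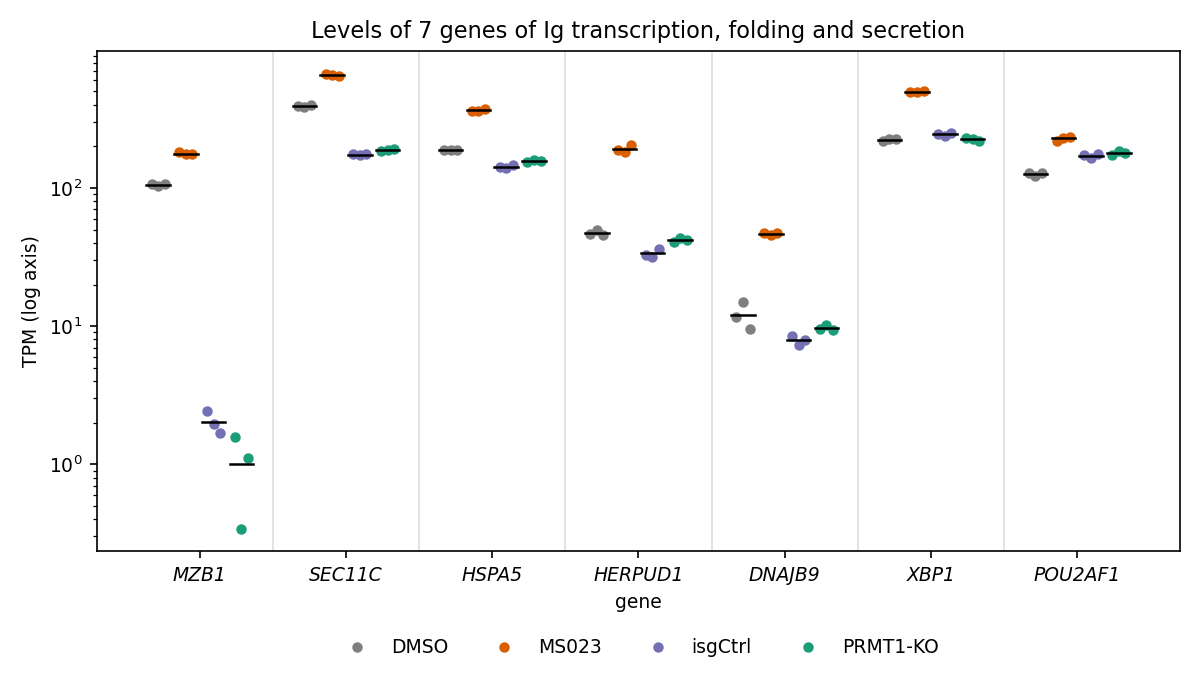
TPM (y axis, log scale) of 7 genes of Ig folding, secretion and transcription (x axis) in each sample, with 3 dots per group and a line at the group mean. All 7 are highest in MS023, and MZB1 drops from above 100 TPM in DMSO and MS023 to below 2.5 TPM in isgCtrl and PRMT1-KO, while XBP1 and POU2AF1 do not drop.

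Of 16 genes for Ig partners and recombination, 5 were tested with MS023 and 3 were called, all up, beside 30.9% of all genes. FCMR, the Fc receptor for IgM, rose from 30.8, 28.6 and 32.6 TPM to 90.6, 83.5 and 92.0 TPM, by 1.504 ± 0.08 (limma, Benjamini-Hochberg adjusted p = 8.9e-05). FCRLA rose by 0.79, and TRIM21, an intracellular antibody receptor, by 0.74. In PRMT1-KO 4 were tested and none was called, while 1 had an unadjusted limma p under 0.05, beside 2290 of all 12285 genes. Between the controls FCRLA and FCMR were lower in isgCtrl by 1.19 and 0.52, and UNG, a uracil glycosylase of class switching, was higher by 0.50.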

How the data were processed

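RNA-seq of 12 JJN3 samples was analysed. The authors deposited gene values as log2(TPM+1). Per the methods and the labels, they trimmed reads with Trimmomatic, aligned them to hg38 with STAR and quantified them with Salmon, with GENCODE V35 as annotation. TPM were recovered from the deposited values, and no step upstream of them was repeated. The methods give a minimum number of read pairs for all samples, and TPM do not hold the depth of each. Replicate numbers (n = 3) limit the precision, and an exact permutation test of 3 against 3 cannot go below p = 0.1.

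Groups were taken from the labels. limma 3.58.1 (R 4.3.3, eBayes without trend) was fitted to the 6 samples of each comparison, and to all 12 for the difference of effects, over every gene with a mean log2(TPM+1) above 1 in a group. p were adjusted by Benjamini-Hochberg over all genes tested. ± is the SD of TPM, sums and ratios, and the SE of log2 differences. Folds are ratios of mean TPM, and none is given where a sample is at 0. Sums over genes carry no test. The code was tested on simulated data. Positions are from GENCODE v44 (all 380 symbols matched). Stretches of 31 bases were counted over all its transcripts, and octamers were searched in GRCh38 and in RefSeq promoters.

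The genes and lists were chosen with earlier results of these data known. Named genes are the constant genes, JCHAIN and IGLL5, the 5 highest V segments of each locus, up to 10 further called Ig genes per comparison, and up to 6 called genes per list. Alternatives were other filters, scalings, pseudocounts and thresholds, a trend in eBayes, a replicate block, all 12 samples, copies summed to classes, and each sample left out.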

Additional observations from a re-analysis of the deposited data

Results flagged for a closer look

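The effects of MS023 and of PRMT1-KO differed by the test of the difference itself for 7 of the 22 Ig genes tested (limma on 12 samples, Benjamini-Hochberg adjusted p and difference past both thresholds). Over all 13256 genes tested the share was 24.4%. MS023 minus PRMT1-KO was 1.35 for IGHE, 1.27 for IGLV3-25, 0.94 for JCHAIN, 0.85 for IGLV2-11, 0.79 for IGLL5, 0.79 for IGLV2-23 and -0.84 for IGHG4 in log2(TPM+1). For IGLV3-25 the isgCtrl and PRMT1-KO samples were all listed at 0. Those of IGLV2-23 and IGLV2-11 were at or below 0.114 and 0.842 TPM. The differences of these genes are thus in effect those of MS023 alone. IGLV3-25 also passed the filter only through MS023, so its call is no support for a difference. The calls of IGLV3-25 and IGLV2-11 were lost when single samples were left out, with adjusted p of up to 0.0862 and 0.0768. They were also lost without a filter (0.0986 and 0.0826), with a replicate block (0.0775 and 0.116) and with a pseudocount of 0.1 (0.0760 and 0.656). The groups held 3 samples each, too few for a test of single outlying samples.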

How the results depend on the processing

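The number of Ig genes called with MS023 (11) ranged from 10 to 13 when 1 sample was left out, beside 3707 to 3978 of all genes. With copies summed to classes it was 5, since 11 summed values then stood in place of 21 genes, beside 3980 of all 12893 rows. For isgCtrl against DMSO (11) the number called ranged from 10 to 11, beside 1618 to 1858 of all genes. It was 6 of 13 when log2(TPM+1) had to exceed 1 in every sample, beside 1364 of all 11000 genes. With copies summed it was 6 of 11, with 0 higher and 6 lower in isgCtrl, beside 1758 of all 12652 rows. For the difference of effects (7) it ranged from 5 to 7, beside 3003 to 3206 of all genes. It was 4 of 11 with the filter on every sample, beside 2675 of all 10522 genes. At an adjusted p under 0.25 it was 11 of 22, beside 4115 of all 13256 genes. For PRMT1-KO (1) it was 0 without a filter, with a pseudocount of 0.1, with copies summed and with any 1 sample left out (0 to 0). In these fits 48, 83, 94 and 2 to 21 of all genes were called. At an adjusted p under 0.25 the number was 4 of 15, beside 365 of all 12285 genes. The deviations of same-numbered samples from their group means were correlated at r of -0.23 to 0.10 over the 3 comparisons. With 3 samples per group this cannot decide whether the numbers pair the samples. With a replicate block, the counts were 11 for MS023, 0 for PRMT1-KO, 11 for isgCtrl and 6 for the difference of effects, beside 4018, 0, 1584 and 3111 of all genes. For PRMT1-KO 7 of 15 Ig genes were then at an unadjusted limma p under 0.05, beside 2054 of all 12285 genes. The call of IGLV2-14 with MS023 was lost with all 12 samples (adjusted p = 0.221), and that of PRMT1 in PRMT1-KO with the replicate block (adjusted p = 0.149).

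Some differences near 0, none of them called, changed sign. The PRMT1 difference with MS023 was -0.026 under quantile normalization. In PRMT1-KO, leaving out 1 sample gave -0.0198 to 0.193 for IGHE and -0.00608 to 0.0131 for IGHG1. Between the controls it gave -0.0643 to 0.0178 for IGHE, -0.0346 to 0.0225 for IGHG3 and -0.188 to 0.101 for IGHG4, and IGHE was at 0.0851 under quantile normalization and IGKC at -0.0397 after median-ratio scaling. The cause was not tested. Of the refits of called genes, 459 kept the call and 51 lost it. Without MS023 replicate 2, IGLC3 was called with MS023 (-1.15, adjusted p = 0.0342). Without a filter, 9 of 53 Ig genes were at an unadjusted limma p under 0.05 in PRMT1-KO, beside 3302 of all 27196 genes. With the pseudocount of 0.1 there were 8 of 15, beside 2246 of 12285. With copies summed there were 5 of 9 Ig values, beside 2287 of 12279. The depth of each sample is not held in the TPM, and 3 samples per group limit the precision near 1 TPM.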
